A study of Mus musculus with 42 samples.

Results

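Broad H3K4me3 domains are stretches of at least 10000 bp that carry the promoter mark H3K4me3 in bone marrow-derived mesenchymal stromal cells (MSCs) of C57BL/6 mice and that carry no called island of the Polycomb mark H3K27me3 under solvent. They were found from the lists of islands, the enriched stretches of the genome that the authors called in each ChIP-seq library. Islands of the 8 H3K4me3 libraries were merged, and a merged region was kept as shared where all 8 libraries had an island in it. A shared autosomal region became a broad domain where its longest island averaged at least 10000 bp over the 4 DMSO libraries and where no island of the 4 H3K27me3 DMSO libraries overlapped it. This gave 304 broad domains among 12379 shared autosomal regions and 42705 merged regions in all. The domains were thus chosen by their island lengths and lack of H3K27me3 islands under DMSO, and these values are given as descriptions, without a test.

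The groups were cells treated for 48 h with tributyltin (TBT, 50 nM), with AGN194204 (100 nM), with rosiglitazone (100 nM) or with the solvent dimethyl sulfoxide (DMSO, 0.1%), all at passage 9 to 10. TBT is an organotin compound that activates the retinoid X receptors (RXR) and the fat cell regulator PPARγ, AGN194204 is a synthetic RXR agonist, and rosiglitazone is a PPARγ agonist. RNA was sequenced in 6 libraries per group. H3K4me3 and H3K27me3 were mapped in 4 TBT and 4 DMSO libraries each, with 1 input library (fragmented chromatin without antibody) per treatment. The cells came from 1 purchased stock, and the labels do not state whether each library had its own culture or animal, so p-values measure the spread between these libraries, which may be technical.

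H3K4me3 is placed around the starts of active genes by the SET1 and MLL families of methyltransferases, usually as a narrow peak over the first nucleosomes. At a minority of genes the mark spreads far into the gene, and such broad domains are known for marking genes of cell identity, long-lasting developmental regulators and tumour suppressors. In stromal cells the genes linked to the lineage include those of collagens and other matrix proteins, and of nuclear factor I and Hox transcription factors.

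The promoters beneath these domains ranged from CpG islands to CpG-poor sequence, and 4 are shown to make that range visible. Each line runs 5′ to 3′ from 250 bases before to 50 bases after the annotated start (RefSeq, GRCm38.p6), with every CpG in capitals. Rxra, the RXRα receptor, lies at chr2:27676951-27677250 on the plus strand, and Cebpb, an early adipogenic transcription factor, at chr2:167688665-167688964 on the plus strand. Col1a2, a chain of type I collagen, lies at chr6:4505368-4505667 on the plus strand, and Sparc, the matrix protein osteonectin, at chr11:55420031-55420330 on the minus strand.
Rxra: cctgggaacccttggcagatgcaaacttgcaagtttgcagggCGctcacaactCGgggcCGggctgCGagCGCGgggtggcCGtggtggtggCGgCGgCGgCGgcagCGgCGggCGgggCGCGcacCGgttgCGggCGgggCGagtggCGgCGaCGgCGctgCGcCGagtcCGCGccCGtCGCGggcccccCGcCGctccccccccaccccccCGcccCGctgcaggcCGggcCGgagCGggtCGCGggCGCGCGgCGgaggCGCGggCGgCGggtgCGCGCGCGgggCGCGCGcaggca
Cebpb: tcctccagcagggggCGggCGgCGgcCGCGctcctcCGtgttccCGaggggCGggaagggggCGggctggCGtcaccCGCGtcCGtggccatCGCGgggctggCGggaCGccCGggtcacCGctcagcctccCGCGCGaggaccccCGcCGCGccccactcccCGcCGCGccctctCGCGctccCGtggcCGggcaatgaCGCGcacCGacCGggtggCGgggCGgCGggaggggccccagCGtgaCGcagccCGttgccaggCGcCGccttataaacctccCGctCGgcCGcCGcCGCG
Col1a2: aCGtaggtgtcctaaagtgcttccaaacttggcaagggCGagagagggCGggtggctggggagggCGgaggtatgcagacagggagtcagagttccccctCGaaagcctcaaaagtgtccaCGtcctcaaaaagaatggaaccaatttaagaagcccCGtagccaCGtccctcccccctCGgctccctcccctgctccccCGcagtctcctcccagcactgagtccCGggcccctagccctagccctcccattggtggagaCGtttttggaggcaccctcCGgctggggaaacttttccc
Sparc: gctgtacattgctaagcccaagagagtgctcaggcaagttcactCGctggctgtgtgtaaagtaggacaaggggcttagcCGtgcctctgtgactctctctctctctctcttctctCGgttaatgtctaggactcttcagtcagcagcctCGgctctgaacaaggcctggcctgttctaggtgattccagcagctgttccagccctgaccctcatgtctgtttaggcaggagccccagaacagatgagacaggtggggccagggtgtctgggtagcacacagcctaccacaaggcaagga

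The Rxra window held 55 CpGs and the Cebpb window 50, whereas the Col1a2 window held 13 and the Sparc window 4. The Rxra domain averaged 11449 bp and the Sparc domain 18299 bp under DMSO, with the longer domain at the start with fewer CpGs. Other pairs went the other way. The Ptpn1 window held 47 CpGs in a domain of 28999 bp, and the Tbxa2r window 1 CpG in a domain of 10399 bp. A relation of CpGs to domain length was not computed. Over all 456 promoter windows whose start fell in a broad domain, the median was 17 CpGs and the median GC content 60.0%. Over 7372 windows in the shorter shared regions that had no called H3K27me3 island under DMSO (the shorter regions without H3K27me3), the medians were 22 CpGs and 61.7%. Windows with at least 10 CpGs made up 74.3% of those in broad domains and 86.5% of those in the shorter regions. Windows of 1 domain share that domain, and no test was made on these shares.

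Short motifs were counted in the same windows on both strands, and none of the 3 motifs contains another. The cyclic AMP response element TGACGTCA occurred in 3 of 456 windows of broad domains (0.658%), in 3.58% of windows of shorter regions and in 1.87% of all 26619 autosomal windows. The AP-1 site TGANTCA occurred in 8.11%, 4.73% and 8.00% of these 3 sets. The E-box CACGTG occurred in 9.43%, 10.4% and 7.17%. A match or its absence describes these letters in these windows only.

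Broad domains also held 38 microRNA genes in 23 domains, of which 36 had a mature sequence in the RefSeq table (GRCm38.p6). Those that share a seed, the bases 2 to 8 that pair with target transcripts, are printed together with the seed in capitals, beside other members of the same clusters. The first pair, from the domain on chromosome 6 that holds Mir29a and Mir29b-1, belongs to a family known to repress collagen transcripts.
miR-29a-3p: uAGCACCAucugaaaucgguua
miR-29b-3p: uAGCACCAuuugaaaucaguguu
miR-125a-5p: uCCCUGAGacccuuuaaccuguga
miR-125b-5p: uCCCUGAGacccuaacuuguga
miR-132-3p: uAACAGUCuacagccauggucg
miR-212-3p: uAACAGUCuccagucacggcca
miR-181c-5p: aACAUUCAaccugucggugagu
miR-181d-5p: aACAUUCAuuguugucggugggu
miR-99b-5p: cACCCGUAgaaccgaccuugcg
let-7e-5p: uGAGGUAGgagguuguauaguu
miR-23a-3p: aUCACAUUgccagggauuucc
miR-27a-3p: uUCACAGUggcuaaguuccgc
miR-24-3p: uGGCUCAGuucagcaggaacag
miR-196a-5p: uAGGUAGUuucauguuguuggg

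Mir125a lay with Mir99b and Mirlet7e in the Spaca6 domain (chr17:17822401-17849000), and Mir125b-1 lay in a domain of its own on chromosome 9 (chr9:41576001-41595400), so the CCCUGAG seed stood in 2 broad domains. Mir132 and Mir212 shared the domain of Hic1 (chr11:75162801-75181400). Mir181c and Mir181d shared 1 domain on chromosome 8 with the Mir23a, Mir27a and Mir24-2 cluster (chr8:84175001-84213800). The mature miR-196a-5p is encoded by Mir196a-2 in the Hoxc domain and by Mir196a-1 in the Hoxb domain, and both domains were broad. In comparison, 136 microRNA genes lay in 126 of the 7871 shorter regions without H3K27me3. The broad domains are longer and so have more room for a gene. MicroRNA levels were not analysed here.

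The domains averaged from 10049 to 97699 bp under DMSO, with a median of 12499 bp. Most were close to the threshold, with 235 between 10000 and 15000 bp, 47 between 15000 and 20000 bp and 22 of at least 20000 bp. Just inside the threshold stood a histone gene region on chromosome 13 (H4c18 and H2ac24), the Zfp967 region on chromosome 2 and a region without a gene start on chromosome 5, each at 10049 bp. Just outside stood the regions of Fgf22 and Rnf126, of Spry2 and a region without a gene start on chromosome 14, each at 9999 bp. Within 500 bp of the threshold there were 42 regions inside and 62 outside. In all 8 libraries 57 of the 304 domains reached 10000 bp.

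Several of the longest domains held developmental regulators. The Hoxc cluster, whose homeobox genes set position along the body axis (Hoxc4, Hoxc5, Hoxc6, Hoxc8, Hoxc9, Hoxc10 and Hoxc11), lay in 1 domain at chr15:102949601-103043400. Its longest islands measured 67599, 64399, 36399 and 63599 bp in the TBT libraries and 65199, 68799, 58399 and 61199 bp in the DMSO libraries. TBT library 3 lay below the other 7, which overlapped. Nfix, a nuclear factor I transcription factor, had islands of 45799, 37999, 42999 and 43399 bp in TBT libraries and 33999, 55599, 38199 and 41599 bp in DMSO libraries, with full overlap. Its relative Nfic shared a domain with Fzr1, an activator of the anaphase-promoting complex, that averaged 31399 ± 7079 bp in TBT libraries and 28599 ± 2191 bp in DMSO libraries (SD, n = 4 each).

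Other long domains lay at genes of the cytoskeleton and matrix. Myh9, the heavy chain of nonmuscle myosin IIA, had islands of 54199, 53399, 33999 and 26999 bp in TBT libraries and 71599, 35199, 20199 and 34399 bp in DMSO libraries. This domain varied as much within each group as between them. Col1a2 had islands of 16799, 11999, 24599 and 12199 bp in TBT libraries and 31399, 19999, 21799 and 29999 bp in DMSO libraries, with an overlap of 1 TBT library. Sparc averaged 14799 ± 3923 bp in TBT libraries and 18299 ± 1851 bp in DMSO libraries (SD, n = 4 each). The Mir29a domain averaged 30099 ± 4971 bp in TBT libraries and 28649 ± 8240 bp in DMSO libraries.

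The other domains among the 12 longest with a gene start were less uniform. Phf10, a subunit of a SWI/SNF remodelling complex, had islands of 97799, 96399, 96399 and 30599 bp in TBT libraries and 98799, 95999, 98599 and 97399 bp in DMSO libraries. Its merged region on chromosome 17 took 5.92 times the input reads per kb of the median shared region in the TBT input and 5.91 times in the DMSO input, so this length rests on sequence that is also deep without antibody. The Zfp97 and Zfp960 domains, KRAB zinc finger genes on chromosome 17, averaged 15799 and 16499 bp in TBT libraries, and 37299 and 26549 bp in DMSO libraries. Their ChIP reads were 2.67 and 2.11 times the input in TBT libraries, and 1.24 and 1.47 times in DMSO libraries. Domains at Cbarp with Midn and Cirbp, at Ssrp1, at Eif4b and at Ptpn1 averaged 25949, 23399, 25899 and 13699 bp in TBT libraries, and 37499, 34099, 29699 and 28999 bp in DMSO libraries. Ssrp1 encodes a subunit of the histone chaperone FACT, Eif4b a translation initiation factor, and Ptpn1 the phosphatase PTP1B.

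Of the receptor and fat cell regulator genes named for the compounds, Rxra lay in a broad domain (chr2:27668801-27685400) with islands of 6799, 6199, 6999 and 10799 bp in TBT libraries and 11799, 14799, 9799 and 9399 bp in DMSO libraries. Cebpb also lay in a broad domain, with 17199, 12999, 15199 and 8999 bp in TBT libraries and 13799, 10799, 12999 and 14399 bp in DMSO libraries. Pparg had no broad domain. Its shared region averaged 2549 bp in TBT libraries and 3549 bp in DMSO libraries and met an H3K27me3 island in 1 TBT library and 1 DMSO library. Cebpa, a partner of PPARγ, had 5449 bp in TBT libraries and 4549 bp in DMSO libraries, with an H3K27me3 island in 4 TBT and 3 DMSO libraries. Ezh2, the methyltransferase that makes H3K27me3, averaged 4849 bp in TBT libraries and 4149 bp in DMSO libraries.

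Across the 304 domains the median of the longest island was 13899, 10599, 12399 and 9399 bp in the TBT libraries and 13799, 12199, 11399 and 12499 bp in the DMSO libraries. These medians averaged 11574 ± 1981 bp for TBT and 12474 ± 998 bp for DMSO (SD, n = 4 each), and the libraries overlapped. The island reads of the libraries were 10311922, 5954363, 7524451 and 6376528 for TBT and 10633063, 7544676, 7723096 and 7426243 for DMSO, and TBT libraries 2 and 4, with the fewest reads, had the lowest medians. The part of depth in these lengths was not tested. In the TBT mean 220 domains still reached 10000 bp and 84 did not, while 65 other shared regions without H3K27me3 reached it under TBT alone. The domains were chosen for length under DMSO, so a shorter mean under TBT is built into the choice and nothing is read from 203 shorter, 99 longer and 2 equal domains.

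**Figure D1:**
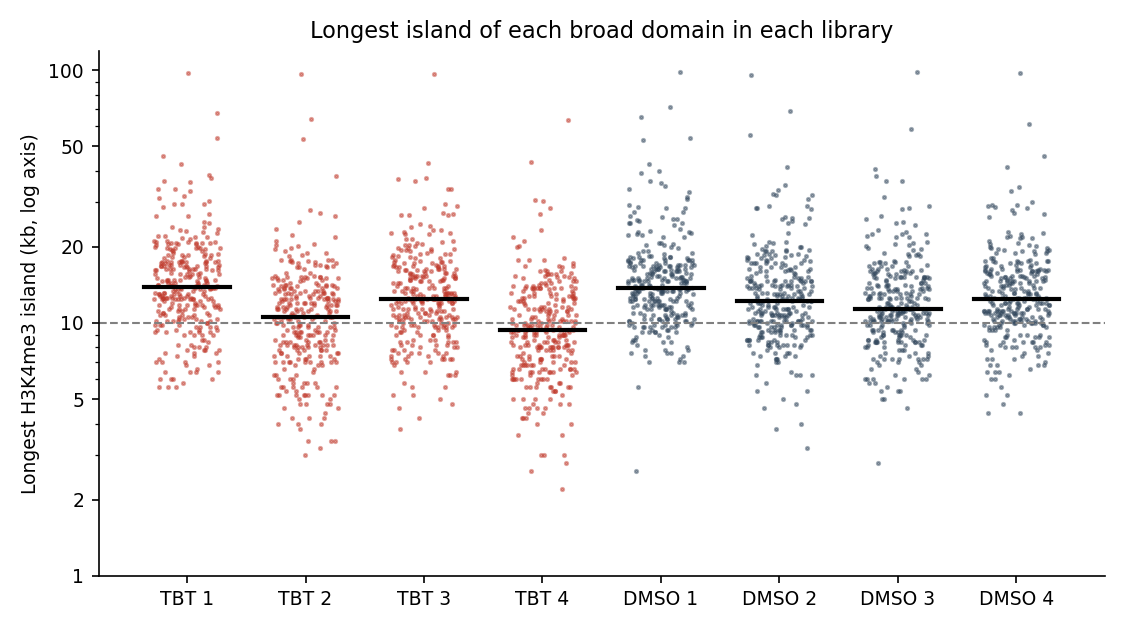
Longest H3K4me3 island of each of the 304 broad domains (vertical axis, kb, log scale) in the 4 TBT and 4 DMSO libraries; each point is a domain, black lines are medians and the dashed line is 10 kb. Medians run between 9399 and 13899 bp in TBT libraries and between 11399 and 13799 bp in DMSO libraries.

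In 7 domains every TBT island was shorter than every DMSO island, and in 0 domains the reverse held, where 0.994% and 0.719% of all shared regions met these conditions. As the DMSO lengths chose the domains, nothing is read from these counts. The 7 domains were those of Ssrp1, Spaca6, Nr4a1, Cdc42ep1, Cstad, Scd1 and Srebf2, and were listed after their values were seen. Nr4a1, an orphan nuclear receptor, averaged 8499 bp in TBT libraries and 15399 bp in DMSO libraries. The domain with 1 end of Scd1, a stearoyl-CoA desaturase, averaged 6599 bp in TBT libraries and 10699 bp in DMSO libraries. Srebf2, a regulator of cholesterol synthesis, averaged 5099 bp in TBT libraries and 10549 bp in DMSO libraries. The largest decreases in base pairs were those of Zfp97, Phf10, Ptpn1 and Cbarp given above. The largest increases were at Hoxb8, Tmem59l, Ccdc85b and Zfp955a, which averaged 21399, 19299, 20049 and 19499 bp in TBT libraries, and 16349, 14199, 14649 and 11799 bp in DMSO libraries.

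ChIP reads were also compared, with edgeR's quasi-likelihood test over all 12379 shared regions and Benjamini-Hochberg adjustment. Reads of a region were summed over the islands that each library had there, so these counts also carry island calls and lengths. Reads outside a library's islands were not counted. Past an adjusted p of 0.05 there were 1 broad domain with more reads under TBT, where 0.113% of all shared regions passed, and 2 with fewer, where 0.0565% passed. At an unadjusted p under 0.05 there were 60 domains of 304, where 8.3% of all shared regions passed. DESeq2 called 3 with more and 12 with fewer reads, among 69 and 65 of all shared regions. The number with fewer fell to 0 without TBT library 3 or 4 or DMSO library 2, and to 1 without TBT library 2 or DMSO library 1, 3 or 4. This contrast shares the DMSO libraries with the rule, so nothing is read from these counts. The domain with more reads was that of Angptl4, which encodes an inhibitor of lipoprotein lipase and is a classic PPAR target (chr17:33774601-33788800). Its islands held 1786, 952, 1317 and 1110 reads in TBT libraries and 1156, 885, 813 and 875 in DMSO libraries. On average this was 188 CPM (counts scaled to library size, here island reads in shared regions) under TBT and 124 under DMSO. The 2 with fewer reads were those of Fbln2, the matrix protein fibulin-2, at 136 CPM under TBT and 196 under DMSO, and of Msln, mesothelin, at 59.7 CPM under TBT and 92.4 under DMSO.

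In the authors' deposited table of differential H3K4me3 peaks, 6 peaks met a broad domain, 2 of them higher in TBT (Iigp1 and Angptl4) and 4 lower in TBT (Msln, Eps8, Prss22 and Fbln2). That table gives concentrations, on a log2 scale, of 9.72 under TBT and 8.91 under DMSO for Angptl4. The authors' deposited table lists 246 H3K4me3 peaks in all, 24 higher and 222 lower in TBT. The Iigp1 and Eps8 domains had no gene start placed in them and are named by a gene that meets them. In the edgeR test above, the Iigp1, Eps8 and Prss22 domains did not pass (edgeR adjusted p = 0.0764, 0.315 and 0.105).

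Relative to their gene the broad domains reached mainly downstream. Among 82 domains with a single protein-coding start in the promoter table, spanned on average by the longest DMSO islands, the stretch covered by the longest island had a median of 3075 bp upstream and 8409 bp downstream in TBT libraries, and 3469 bp upstream and 9071 bp downstream in DMSO libraries. The downstream arm under DMSO was the longer in 66 of the 82 domains (80.5%). Some of these domains also hold starts of noncoding genes. Shorter regions without H3K27me3 had 1176 bp upstream and 2225 bp downstream in TBT libraries, and 1176 bp and 2259 bp in DMSO libraries, with the downstream arm longer in 87.8% of 3539 regions. Both arms were thus longer in broad domains, which follows in total length from the rule, and the share of downstream-leaning domains was no higher. The genes themselves were shorter, with a median span of 10703 bp for 359 genes starting in broad domains and 24992 bp for 6235 genes starting in the shorter regions.

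Of the 304 domains, 261 held the start of an annotated gene or a whole gene, 27 held only 1 end of a gene whose strand is not given in the tables used, and 16 lay within a gene. A single protein-coding start was found in 149 domains, and 94 held between 2 and 9. In all 607 genes were placed in broad domains, of which 432 were protein-coding, 110 long noncoding and 38 microRNA genes.

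Enrichment over input was lower in the broad domains. Ratios of ChIP to input reads, and input reads per kb, were taken over the called islands of each library in a region. The median ratio of broad domains was 5.27 in TBT libraries and 4.30 in DMSO libraries, while shorter regions without H3K27me3 had 9.34 in TBT libraries and 7.65 in DMSO libraries. The domains held 7.12% to 7.34% of the island reads in shared regions in TBT libraries and 7.31% to 7.61% in DMSO libraries. The input itself was deeper in the domains, at a median of 1.22 times the median shared region in the TBT input and 1.21 times in the DMSO input. In 4 domains the mean of both inputs exceeded 2 times that median, and the domain with 1 end of Pisd-ps2, on chromosome 17, was the deepest, at 11.5 times in the TBT input and 11.3 times in the DMSO input.

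The domains were spread unevenly over the chromosomes. On chromosome 15, 36 of 501 shared regions were broad domains (7.19%), on chromosome 17 it was 36 of 542 (6.64%), on chromosome 8 31 of 623 (4.98%), on chromosome 6 30 of 656 (4.57%) and on chromosome 19 18 of 402 (4.48%). On chromosome 1 there were 2 of 713 (0.281%), on chromosome 4 4 of 877 (0.456%), on chromosome 16 2 of 389 (0.514%) and on chromosome 13 3 of 537 (0.559%). The 5 chromosomes with the most DMSO input reads per kb held 151 domains among 2724 shared regions (5.54%), and the 5 with the least held 18 among 2882 (0.625%).

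Input depth moved with these shares. In shared regions that are not broad domains the median TBT input relative to all shared regions was 1.24 on chromosome 15 and 1.23 on chromosome 17, against 0.695 on chromosome 1 and 0.664 on chromosome 16. The rank correlation (Spearman) over the 19 chromosomes between this input depth and the share of broad domains was 0.905 with the TBT input and 0.907 with the DMSO input. Taken over islands of 2000 to 4000 bp alone it was 0.898 with the TBT input and 0.844 with the DMSO input. With islands of at least 5-fold over input alone, 56 broad domains were left and the value was 0.629 with the DMSO input. The share of shared regions that met an H3K27me3 island under DMSO ranked the chromosomes alike, at 0.900 with the share of broad domains. The chromosomes share the same libraries, these values are descriptions, and the part of input depth in which regions reached 10000 bp was not tested.

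**Figure D2:**
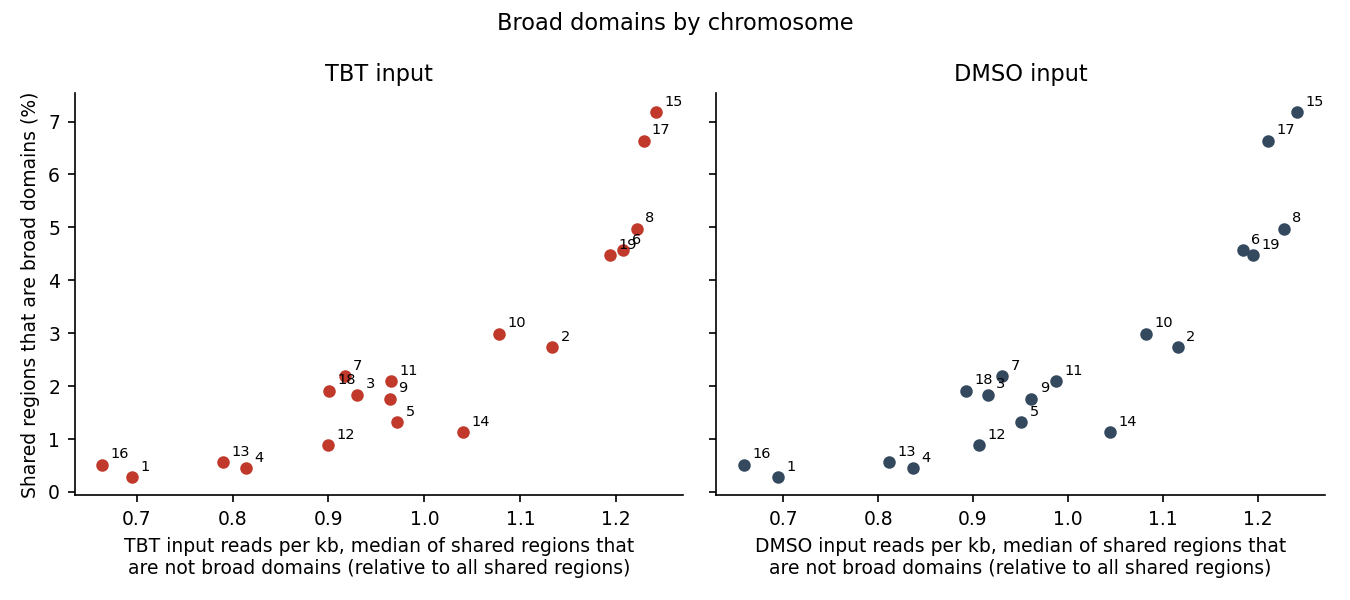
Share of shared autosomal regions that were broad domains (vertical axis, %) against input reads per kb in the other shared regions, relative to the median of all shared regions (horizontal axis), for the TBT input and the DMSO input; each point is 1 of the 19 autosomes, labelled by number. Chromosomes 15, 17, 8, 6 and 19 stand at the upper right and chromosomes 1, 16, 13 and 4 at the lower left in both panels.

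By the rule no H3K27me3 island was called in these domains under DMSO, and islands were counted in the TBT libraries. No called island does not mean no reads. The authors' deposited table gives a log2 concentration of 8.84 under TBT and 7.35 under DMSO for an H3K27me3 peak that meets the Pim3 domain (chr15:88848801-88877800). That peak (chr15:88866801-88910800) runs past the end of the domain, so its DMSO reads may lie outside the domain. Islands met 36, 72, 47 and 66 of the 304 domains in the TBT libraries, and 143 domains (47.0%) in at least 1 of them. Of these, 86 domains had an island in 1 TBT library, 39 in 2, 15 in 3 and 3 in all 4. Among the shorter regions without H3K27me3 under DMSO, 25.5% met an island in at least 1 TBT library and 0.750% in all 4. Domains are longer and can meet an island more easily, and the TBT libraries had 8741573 to 11358001 H3K27me3 island reads against 6153079 to 9574234 in DMSO libraries. The H3K27me3 islands covered 155 to 177 Mb in TBT libraries and 106 to 167 Mb in DMSO libraries. As the rule required 0 islands under DMSO, any island under TBT is a gain by construction, and nothing is read from the count.

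The 3 domains met in all 4 TBT libraries were those of Cbarp with Midn and Cirbp, of Baiap3, and of Nanos3 with the printed Mir181c, Mir181d, Mir23a, Mir27a and Mir24-2. The overlap at the microRNA domain was 12200, 4200, 4800 and 7800 bp in the 4 TBT libraries. The authors' deposited table lists an H3K27me3 peak at chr8:84207401-84210800, which spans the Mir23a, Mir27a and Mir24-2 genes, with a log2 concentration of 4.98 under TBT and -0.19 under DMSO. That deposited table of the authors holds 21 H3K27me3 peaks in broad domains, all 21 higher in TBT, among 4329 peaks of which 2055 are higher and 2274 lower in TBT. The domains were chosen for having no island under DMSO, which largely fixes this direction, so nothing is read from it. The peaks with the smallest FDR in the authors' deposited table met the domains of Polr2e, Sftpc, Gabarap, Zbtb7a, Zbtb7b and Eif4b. The peak that meets the Polr2e domain (chr10:80011001-80032600) has log2 concentrations of 7.26 under TBT and 1.32 under DMSO in the authors' deposited table. It does not reach the promoter window of Polr2e (chr10:80039610-80039909), so the gene names the domain and not the peak.

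RNA was a measure that the rule did not use. The RNA libraries held 3801758 to 5347365 gene counts. Of the genes placed in broad domains 517 were in the count table, and 411 of them passed the filter on low counts while 106 did not. Of 15 MSC markers 12 exceeded 10 CPM in each of the 4 groups, and no adipocyte, endothelial, chondrocyte or epithelial marker did. The summed level of 5 adipocyte markers was 1.96 to 3.24 CPM under TBT, 0.681 to 2.46 under AGN194204, 0 to 1.48 under rosiglitazone and 0 to 0.676 under DMSO, and Adipoq had 0 counts under TBT and 1 under DMSO. The sum of the MSC markers was 2634 to 2819 CPM under TBT and 2715 to 2769 under DMSO, while single markers moved both ways. Thy1 averaged 35.97 CPM under TBT and 53.7 under DMSO, and Cd44 301 under TBT and 399 under DMSO. Ly6a averaged 108 CPM under TBT and 73.9 under DMSO, and Pdgfrb 370 under TBT and 290 under DMSO. The part of these markers in the RNA results was not tested. Among 9 haematopoietic markers Cd34 and Cd14 exceeded 10 CPM, whereas Ptprc, the pan-leukocyte marker, had 2 counts in the TBT and 2 in the DMSO libraries. In bulk RNA, fewer cells with a transcript and less of it per cell cannot be told apart.

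The share of broad-domain genes called higher was above that of all tested genes under TBT and under AGN194204. With TBT 115 of 411 passed an adjusted p of 0.05 as higher (27.98%), where 15.3% of all 12527 genes did, and 44 as lower (10.7%), where 13.4% did (edgeR quasi-likelihood test in 1 fit of all libraries, Benjamini-Hochberg). With AGN194204 102 were higher (24.8%), where 12.8% of all genes were, and 29 lower (7.06%), where 11.3% were. The changes were small: the median log2 fold change of the 411 genes was 0.04 for TBT and 0.06 for AGN194204, against -0.00228 and -0.00344 over all genes, and at most 2-fold in all but 3 of the called genes for TBT and all but 2 for AGN194204. Scaled to the ERCC spike-in RNA in place of TMM, TBT gave 108 higher and 10 lower and AGN194204 61 higher and 8 lower, while over all 12527 genes it gave 1802 higher and 293 lower with TBT and 908 higher and 300 lower with AGN194204. Both comparisons use the same 6 DMSO libraries, and TBT and AGN194204 were given at different doses.

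The genes sat in 233 domains, of which 100 held more than 1 tested gene. With TBT 94 domains held genes that were called higher and none lower, 35 the reverse, 6 both and 98 neither. With AGN194204 these counts were 87, 21, 6 and 119. No such counts were made for the shorter regions, and a domain with more tested genes can hold a called gene more easily. Nothing is therefore read from the counts by domain. In 48 genes all 6 TBT libraries lay above all 6 DMSO libraries, where 7.08% of all genes did, and in 24 all 6 lay below, where 4.64% did. For AGN194204 these were 63 genes, where 6.95% of all genes lay above, and 15, where 4.69% lay below. For rosiglitazone they were 6, where 0.878% of all genes lay above, and 11, where 0.663% lay below.

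**Figure D3:**
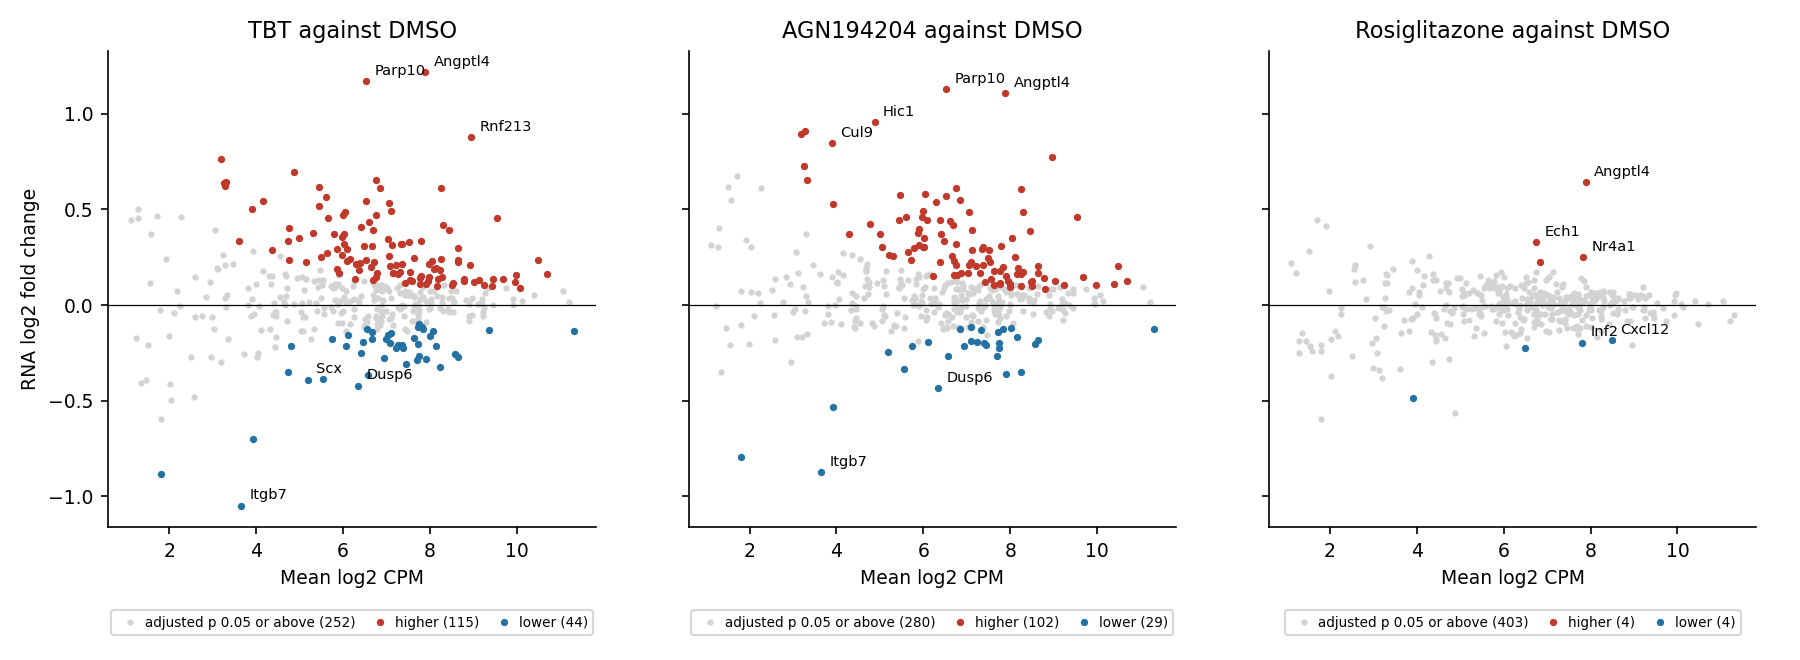
RNA log2 fold change (vertical axis) against mean log2 CPM (horizontal axis) of the 411 tested genes in broad domains, for TBT, AGN194204 and rosiglitazone against DMSO; red points are higher and blue points lower at an adjusted p under 0.05, and grey points are not called. With TBT 115 genes were higher and 44 lower, with AGN194204 102 and 29, and with rosiglitazone 4 and 4.

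The RNA level also differed between the sets. All tested genes were split by level into 3 classes of equal size. Genes of broad domains had a median of 6.71 log2 CPM, with 58.2% in the high class, and the 6229 genes of shorter regions without H3K27me3 a median of 5.77 with 36.3% in the high class. Within the high class 33.5% of broad-domain genes and 17.8% of shorter-region genes were higher with TBT. In the middle class it was 28.7% and 14.4%, and in the low class 10.3% and 8.47%. On the 5 chromosomes with the most input 29.2% of broad-domain genes and 14.6% of shorter-region genes were higher with TBT, and on the other autosomes 26.6% and 14.1%. In 3 classes of promoter GC content, low to high, 28.8%, 26.1% and 26.1% of broad-domain genes were higher with TBT, against 15.1%, 14.2% and 13.7% of shorter-region genes. With AGN194204 the share of broad-domain genes was the larger in all 8 of these classes as well. These shares are descriptions over genes, many of which share a domain.

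**Figure D4:**
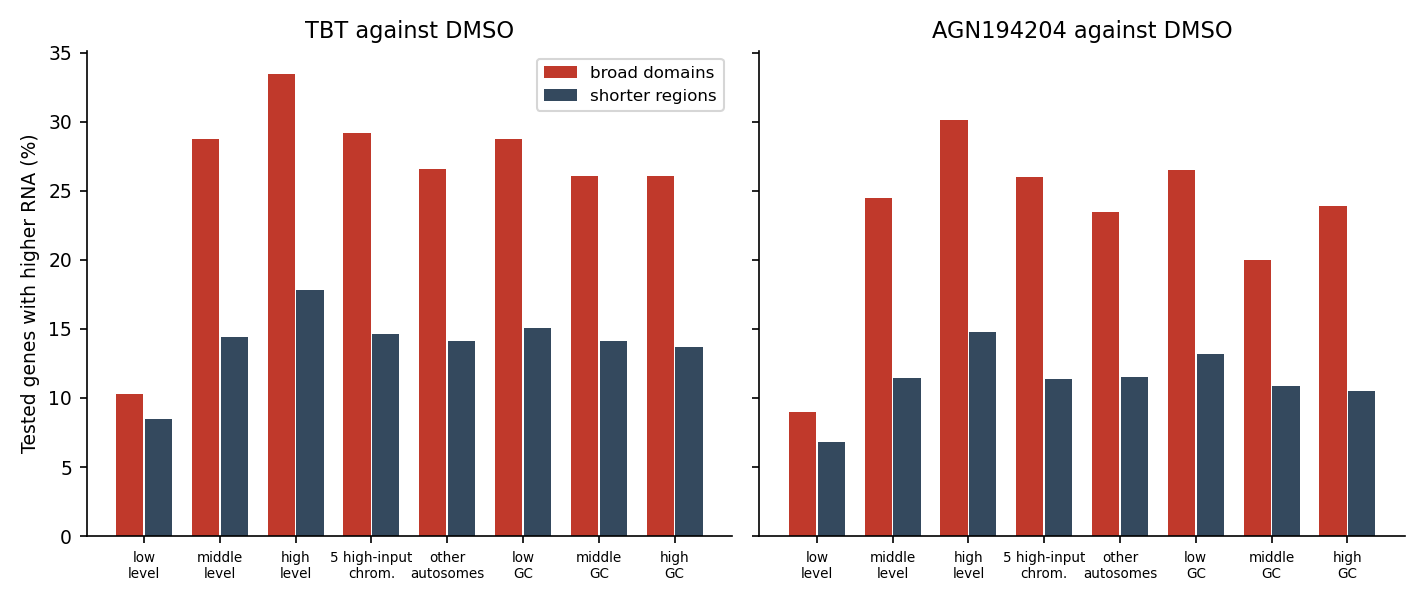
Share of tested genes with higher RNA (vertical axis, %, adjusted p under 0.05) among genes of broad domains (red) and of shorter shared regions without H3K27me3 (dark), within 3 classes of RNA level, 2 chromosome classes by input and 3 classes of promoter GC content, for TBT and AGN194204 against DMSO. The red bar is the taller in all 8 classes of both panels, and closest to the dark bar in the low level class, at 10.3% and 8.47% for TBT.

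Angptl4 had the largest rise with TBT among these genes. Angptl4 RNA ranged from 309 to 344 CPM with a median of 334 in TBT libraries, from 290 to 321 with a median of 302 in AGN194204 libraries, from 207 to 229 with a median of 224 in rosiglitazone libraries, and from 133 to 150 with a median of 143 in DMSO libraries. All 3 treated groups lay above DMSO without overlap. Its log2 fold change was 1.22 ± 0.04 with TBT, 1.11 ± 0.04 with AGN194204 and 0.64 ± 0.04 with rosiglitazone (SE, n = 6 per group, edgeR adjusted p = 3.8e-25, 1.5e-23 and 1.3e-14). Scd2, a stearoyl-CoA desaturase, had 833 to 900 CPM with a median of 875 under TBT, 825 to 932 with a median of 866 under AGN194204 and 611 to 652 with a median of 634 under DMSO. It rose by 0.46 ± 0.03 with TBT and by 0.46 ± 0.03 with AGN194204 (SE), and its change with rosiglitazone was 0.01 ± 0.03.

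Ech1, an enzyme of fatty acid oxidation, had 106 to 142 CPM with a median of 130 under TBT, 116 to 133 with a median of 126 under AGN194204, 98.1 to 111 with a median of 102 under rosiglitazone and 74.6 to 90.8 with a median of 81.3 under DMSO. No treated library overlapped DMSO, and the gene rose by 0.65 ± 0.06, 0.61 ± 0.06 and 0.33 ± 0.06 on the log2 scale with TBT, AGN194204 and rosiglitazone. Pnpla2, the triglyceride lipase ATGL, had 125 to 149 CPM under TBT, 119 to 141 under AGN194204, 97.4 to 109 under rosiglitazone and 81.3 to 98.4 under DMSO. It rose by 0.61 ± 0.05, 0.55 ± 0.05 and 0.22 ± 0.05, and only the rosiglitazone libraries overlapped DMSO. Its rosiglitazone call was lost without DMSO library 3 or rosiglitazone library 5.

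Parp10, Rnf213 and Tgtp2 were also among the larger rises with TBT and with AGN194204. Parp10, a mono-ADP-ribosyltransferase, had 80.0 to 197 CPM with a median of 145 under TBT, 115 to 164 with a median of 129 under AGN194204 and 49.4 to 71.3 with a median of 62.5 under DMSO. Its treated libraries varied more than the DMSO libraries but did not overlap them, and it rose by 1.17 ± 0.14 with TBT and 1.13 ± 0.14 with AGN194204. Rnf213, a large ubiquitin ligase, rose by 0.88 ± 0.13 with TBT and 0.78 ± 0.13 with AGN194204. Tgtp2, an immunity-related GTPase, rose by 0.63 ± 0.17 with TBT and 0.91 ± 0.17 with AGN194204 at 5.1 to 8.8 CPM under DMSO, and it has a near-identical neighbour, so reads may be split between copies. With rosiglitazone the changes of these 3 genes were 0.03 ± 0.15, -0.21 ± 0.13 and 0.11 ± 0.18, none past the threshold.

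Hic1, a transcriptional repressor whose domain holds Mir132 and Mir212, had 28.2 to 46.1 CPM with a median of 39.6 under TBT, 28.2 to 63.4 with a median of 47.5 under AGN194204, 13.0 to 19.8 with a median of 16.2 under rosiglitazone and 21.4 to 29.1 with a median of 23.8 under DMSO. It rose by 0.70 ± 0.13 with TBT and by 0.96 ± 0.13 with AGN194204, with 1 or more treated libraries overlapping DMSO. With rosiglitazone all 6 libraries lay below all 6 DMSO libraries, at a log2 change of -0.57 ± 0.15 (edgeR adjusted p = 0.055). Cul9, a cullin that shares a domain with Srf, rose by 0.85 ± 0.15 with AGN194204 and by 0.50 ± 0.15 with TBT, and the TBT call was lost without TBT library 4. Tmem140, a transmembrane protein gene, rose by 0.76 ± 0.20 with TBT and by 0.90 ± 0.20 with AGN194204.

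Falls were fewer. Itgb7, an integrin subunit whose domain also holds the retinoic acid receptor gene Rarg, had 4.26 to 11.05 CPM with a median of 9.38 under TBT, 8.48 to 11.4 with a median of 9.74 under AGN194204 and 14.4 to 22.4 with a median of 17.5 under DMSO. It fell by 1.05 on the log2 scale (SE 0.16) with TBT and by 0.87 (SE 0.16) with AGN194204, without overlap of the groups. Dusp6, a phosphatase of the kinase ERK, had 65.4 to 76.6 CPM with a median of 70.8 under TBT, 66.9 to 75.3 with a median of 69.0 under AGN194204 and 88.0 to 108 with a median of 91.7 under DMSO, again without overlap. It fell by 0.42 with TBT and by 0.43 with AGN194204 (SE 0.05 each). Tgfbr2, the type II TGF-beta receptor, fell by 0.32 with TBT and by 0.35 with AGN194204 (SE 0.04 each). Lbh, a transcriptional cofactor of the Wnt pathway, fell by 0.28 with TBT and by 0.36 with AGN194204 (SE 0.03 each).

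Scx, the tendon transcription factor scleraxis, had 27.8 to 34.0 CPM with a median of 30.0 under TBT and 35.8 to 44.8 with a median of 39.2 under DMSO, and fell by 0.39 (SE 0.09). Its AGN194204 change of -0.25 ± 0.08 passed the threshold but lost it without DMSO library 1 or 4 or AGN194204 library 1, 2 or 3. Spaca6, whose domain holds Mir99b, Mirlet7e and Mir125a, had 72.9 to 102 CPM under TBT and 96.1 to 112 under DMSO and fell by 0.36 (SE 0.07) with TBT and by 0.27 (SE 0.07) with AGN194204. Hoxc5 fell by 0.35 (SE 0.12) with TBT, a call lost without TBT library 4 or 5 or DMSO library 2, and its AGN194204 change was 0.06 ± 0.11. The Spaca6 and Hoxc5 calls and the AGN194204 call of Scx were lost when scaled to the spike-ins, as were the TBT calls of Nfix and Irs2.

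**Figure D5:**
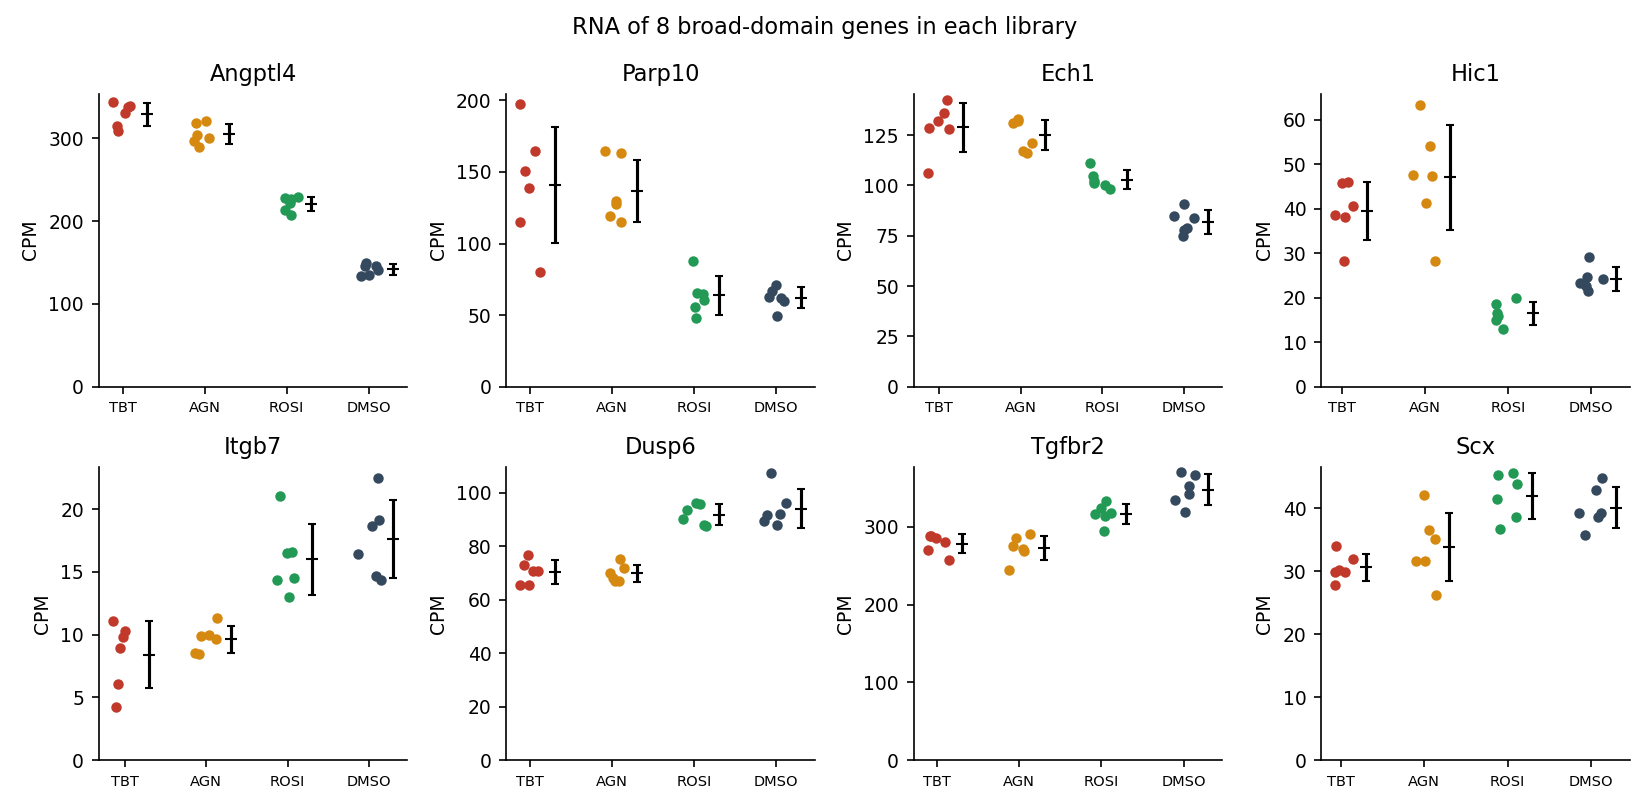
RNA level (vertical axis, CPM from 0) of 8 genes in broad domains in each library of the TBT, AGN194204 (AGN), rosiglitazone (ROSI) and DMSO groups; points are libraries, and bars beside them the mean ± SD (n = 6). Angptl4 and Ech1 stand above DMSO in all 3 treated groups, Parp10 in the TBT and AGN194204 groups, and Itgb7, Dusp6 and Tgfbr2 below DMSO in those 2 groups.

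Rosiglitazone changed few of these genes. Of 411 tested, 4 were higher, where 0.623% of all genes were, and 4 lower, where 0.415% were. The higher genes were Angptl4, Ech1, Pnpla2 and Nr4a1, which had 229 to 260 CPM with a median of 251 under rosiglitazone and 199 to 220 with a median of 207 under DMSO, without overlap. Among the lower genes Cxcl12, the chemokine that retains blood stem cells in marrow, had 289 to 332 CPM with a median of 318 under rosiglitazone and 342 to 378 with a median of 356 under DMSO, and fell by 0.18 (SE 0.04). Inf2, a formin, fell by 0.20 (SE 0.04), and Zfpm1, a GATA cofactor, by 0.22 (SE 0.05). The other one was 9930111J21Rik2. The Inf2 call was lost without DMSO library 2 or 4 or rosiglitazone library 3, and the Cxcl12 call without rosiglitazone library 2. The number of lower genes was 2 without DMSO library 2, DMSO library 4 or rosiglitazone library 2, and 13 when rosiglitazone and DMSO libraries were fitted alone, where 121 of all 12131 genes tested were lower. Scaled to the spike-ins, 2 genes were higher and 0 lower with rosiglitazone, among 21 higher and 12 lower of all genes, and the Pnpla2 and Nr4a1 calls were lost.

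The pathway lists gave a picture by role, where 3.28% of all tested genes lie in a broad domain. The list sizes count all symbols, tested or not, so their shares are not on the same base as this value. A few genes stand in a list under both an older and a newer symbol, such as Cyr61 and Ccn1. Of 105 stromal and skeletal transcription factors 8 lay in broad domains, among them Nfix, Nfic, Meis2, Scx, Hic1 and Srf. With TBT 4 of these 8 were higher and 1 lower, and with AGN194204 3 were higher and 1 lower. In the whole list 26 of 83 tested genes were higher and 14 lower with TBT, and 22 higher and 14 lower with AGN194204. Meis2, a partner of Hox proteins, rose by 0.17 ± 0.04 with TBT, and Nfix by 0.09 ± 0.03, a call lost without TBT library 3, 4 or 5 or DMSO library 1, 3 or 6. Nfic had a log2 change of -0.000353 with TBT (edgeR adjusted p = 0.996).

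Of 37 symbols of adipogenic regulators 4 lay in broad domains: Cebpb, Rxra and the insulin receptor substrates Irs2 and Irs1. With TBT 1 of these was higher, Irs2 by 0.23 ± 0.08, a call lost without DMSO library 1, 3 or 4 or TBT library 1, and none with AGN194204 or rosiglitazone. Rxra had 191 to 206 CPM with a median of 198 under TBT and 185 to 213 with a median of 197 under DMSO, and Cebpb 112 to 139 with a median of 129 under TBT and 112 to 130 with a median of 118 under DMSO. The TBT and DMSO libraries overlapped for both genes. In the whole list 13 of 33 tested genes were higher and 3 lower with TBT, and 11 higher and 2 lower with AGN194204. Of 28 PPAR, LXR and RAR targets the broad domains held Scd2 and Angptl4, both higher with TBT and AGN194204, as were 20 of the 24 tested members with TBT and 22 with AGN194204.

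Of 50 symbols of matrix genes 7 lay in broad domains: Col1a2, Sparc, Fbln2, Thbs1, Serpinh1, Fbln1 and Col5a1. With TBT 4 were higher and 1, Fbln1, lower, beside 29 higher and 5 lower of 44 tested in the whole list. With AGN194204 2 were higher and 1 lower, beside 25 higher and 8 lower in the whole list. Col1a2 rose by 0.16 ± 0.04 with TBT, at 1525 to 1864 CPM with a median of 1831 under TBT and 1494 to 1652 with a median of 1576 under DMSO. Fbln2 rose by 0.12 ± 0.03, and its domain had fewer H3K4me3 reads under TBT. Of 40 symbols of actin and adhesion genes 6 lay in broad domains: Myh9, Cald1, Zyx, Anxa2, Itga5 and Tln1. With TBT 1 was higher, beside 11 higher and 3 lower of 39 tested in the whole list. With AGN194204 none was higher, beside 8 higher and 3 lower in the whole list. The change of Myh9 with TBT was 0.08 ± 0.04.

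Of 72 genes of TGF-beta, BMP, Wnt, FGF, Hippo and PDGF signalling 9 lay in broad domains. With TBT 5 of these were lower, namely Dusp4, Inhba, Fgf7, Tgfbr2 and Dusp6, and 1, Errfi1, higher. With AGN194204 4 were lower and 2 higher. In the whole list 17 were higher and 18 lower of 68 tested with TBT, and 17 higher and 18 lower with AGN194204. Dusp4, a nuclear phosphatase of mitogen-activated kinases, had 146 to 168 CPM with a median of 154 under TBT and 186 to 201 with a median of 191 under DMSO, without overlap, and fell by 0.31 (SE 0.04). Errfi1, an inhibitor of the EGF receptor, rose by 0.39 with TBT and by 0.39 with AGN194204.

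Of 55 immediate early and stress-induced genes 10 lay in broad domains. With TBT 7 were higher (Fosl2, Fosl1, Ddit3, Zfp36l2, Vegfa, Zfp36 and Myc) and 1, Ier5l, lower, and with AGN194204 5 were higher and 1 lower. The whole list had 29 higher and 6 lower of 55 with TBT, and 23 higher and 4 lower with AGN194204. Ddit3, the stress-induced factor CHOP, had 55.4 to 68.1 CPM with a median of 61.6 under TBT and 43.2 to 52.3 with a median of 46.9 under DMSO, without overlap, and rose by 0.37 ± 0.06. Zfp36, which destabilises AU-rich transcripts, rose by 0.31, and Myc by 0.25. Of 88 cytosolic ribosomal protein genes 4 lay in broad domains, and none of these passed the threshold with any compound. In that whole list 0 were higher and 4 lower of 81 tested with TBT. No gene of the haematopoietic, endothelial and epithelial lists or of the list of long noncoding and microRNA host genes was placed in a broad domain. Mir143hg of that last list had 1 end in a domain on chromosome 18, for which no start sites were used here.

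Change in the mark and change in RNA were set side by side for 133 domains with a single tested gene. The rank correlation (Spearman) of the RNA log2 fold change with TBT was 0.268 with the log2 ratio of domain length, TBT over DMSO, and 0.368 with the log2 fold change of H3K4me3 reads. These are descriptions across domains of the same libraries. Both measures of the mark use the DMSO islands that chose the domains and depend on island calls, so they are not separate. No such value was computed for the shorter regions, and no trait of broad domains is read from them. Angptl4 was high in RNA and in reads of the mark, with log2 changes of 1.22 in RNA and 0.60 in H3K4me3 reads. The spread of RNA between replicates was compared within the classes by level, as the median biological coefficient of variation. In the high class it was 4.15% for broad-domain genes and 4.26% for genes of shorter regions. In the middle class it was 5.63% and 6.14%, and in the low class 12.8% and 11.7%.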

How the data were processed

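The authors deposited raw read counts per gene for the RNA libraries and, per ChIP library, a list of islands with ChIP and input read counts. Those lists also give, from the authors' caller, a p-value, an FDR and a fold ratio over input. The submitters' processing notes list SICER, an island caller, and the deposited files' naming holds 200 bp windows, 600 bp gaps and an FDR of 0.001. The notes also list STAR, DiffBind and the builds GRCm38 and mm10, without versions. The program that counted RNA reads, and its use of strand, are not given in the sources used here. Overlapping genes are therefore uncertain. The authors' tables of differential peaks hold log2 concentrations, p-values and FDR.

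Regions were merged and genes placed by RefSeq start sites (GRCm38.p6), or by lying wholly inside a domain where no start was listed. Counts were tested with edgeR 4.0.16 (TMM, filterByExpr, quasi-likelihood, Benjamini-Hochberg at 0.05) in R 4.3.3, in 1 fit per assay, with DESeq2 1.42.0 as an alternative, and scripts were tested on simulated data. This left 12527 genes and 12379 regions. CPM are TMM-scaled. Reads outside genes made up 20.9% to 24.3% of counts and were left out with the spike-ins. Region coordinates are 1-based.

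Replicate numbers were left out of the main fits. Between libraries of like number in treated and DMSO groups, the correlations of deviations lay between -0.028 and 0.0965. With replicate number as a block, TBT gave 2038 higher and 1830 lower of all 12527 genes, against 1920 and 1681 without it. Whether the numbers mark a shared batch was not tested. Named genes were the longest domains, those nearest the threshold, the 6 largest rises and falls per compound above a mean level of 1 (log2 CPM), the first members of each list by length, and fixed genes, of which the text gives a part. Genes given beyond that rule, such as Errfi1, were chosen after their values were seen. The domains and the lists were chosen with earlier results of these data known.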

Additional observations from a re-analysis of the deposited data

Results flagged for a closer look

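Among 131 groups of 4 to 6 libraries examined, 9 held a library far from the others of its group, and chance gives about 1 in 20. DMSO library 1 had 10633063 H3K4me3 island reads, where the other DMSO libraries had 7426243 to 7723096. In the Phf10 domain TBT library 4 had a longest island of 30599 bp against 96399 to 97799 bp in the other TBT libraries, and there it held 4 islands in place of 1. In the Hoxc4 domain TBT library 3 had 36399 bp against 63599 to 67599 bp. In the Ccdc85b domain TBT library 1 had 38399 bp against 12399 to 14999 bp. In the Hoxb8 domain DMSO library 4 had 22799 bp against 13599 to 14799 bp in the other DMSO libraries.

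In RNA, Nr4a1 had 180 CPM in 1 TBT library against 225 to 242 CPM in the others, and Cxcl12 had 336 CPM in 1 TBT library against 377 to 392.3 CPM. Tmem140 had 9.57 CPM in 1 rosiglitazone library against 5.43 to 6.73 CPM, and Cul9 had 8.63 CPM in 1 rosiglitazone library against 13.4 to 14.9 CPM.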

How the results depend on the processing

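The number of broad domains was 614 with a threshold of 8000 bp, 169 with 12000 bp, 457 with summed island length, 497 without the condition on H3K27me3 and 56 with islands of at least 5-fold over input, against 304. It was 283 to 330 without 1 DMSO library. The mean of the median lengths was 9349 bp (TBT) and 10199 bp (DMSO) at 8000 bp, 14849 bp (DMSO) at 12000 bp and 10899 bp (DMSO) with summed lengths. Without 1 DMSO library it was 11199 to 11599 bp (TBT) and 12049 to 12649 bp (DMSO). H3K27me3 islands met 276 domains at 8000 bp and 90 at 12000 bp, and 109 to 132 without 1 TBT library. H3K4me3 reads gave 3 domains higher and 12 lower with DESeq2, 2 higher at 8000 bp, 0 higher and 1 lower at 12000 bp, and 1 higher with 0 to 2 lower without 1 library.

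For RNA, genes starting in the stretch common to the 4 DMSO islands (197 tested) gave 59 higher and 27 lower with TBT, 55 and 15 with AGN194204 and 0 higher with rosiglitazone, and 29.9% of them were higher with TBT. At 8000 bp (725 tested) the counts were 192 and 83 with TBT, 173 and 58 with AGN194204 and 10 and 9 with rosiglitazone. At 12000 bp (257 tested) there were 72 higher and 26 lower with TBT, 19 lower with AGN194204 and 2 lower with rosiglitazone. ERCC scaling gave 10 lower with TBT, 61 higher and 8 lower with AGN194204, and 2 higher and 0 lower with rosiglitazone. The counts over all genes with this scaling are given above. The rosiglitazone falls were 7 without the filter, among 97 of all genes, and 13 in a fit of those 2 groups, among 121. In the main fit 52 of all genes fell with rosiglitazone. Without 1 library the counts were 99 to 128 higher and 41 to 46 lower with TBT, 88 to 110 and 24 to 33 with AGN194204, and 3 to 4 and 2 to 6 with rosiglitazone. With the replicate number as a block, H3K4me3 reads were lower in 5 domains, among 11 of all shared regions against 7 in the main fit. Rosiglitazone falls then numbered 7, among 99 of all genes, and the other counts stayed within 1.5 times. The cause of these shifts was not tested. Of the fold changes of named genes under other settings, 2494 kept their side of the threshold, 65 lost it, 33 gained it and 0 changed sign with a call. TBT libraries 2 and 4 had the fewest reads and the lowest medians of longest islands in broad domains, and the part of depth was not tested. Each input is 1 library.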
